A study of Mus musculus with 16 samples.

Results

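The 10 genes described here act along the Wnt pathway: the ligands Wnt4 and Wnt10b, the receptor Fzd10, the amplifier Rspo3, the receptor ubiquitin ligase Rnf43, the scaffold Axin2, the transcription factor Lef1, and the secreted inhibitors Wif1, Sfrp1 and Dkk3. They were taken by name from the 18194 genes to which the platform's annotation gives a probe set of exactly 1 symbol, and for each gene the probe set with the highest mean over all arrays was used. Of the 10 genes 9 were among the 12087 that exceeded a log2 value of 4 on at least 2 arrays and were tested. Wnt10b stayed under that level on every array and is given by its values only.

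The samples were whole dorsal skin biopsies from 9 female C57/B6 mice (an inbred strain, written C57/B7 in the sample titles), first biopsied at an age of 8.5 weeks. At day 5, after 4 days of daily topical application to the skin, a second biopsy of 7 of them was taken at sacrifice: tofacitinib (mice 7, 8 and 9), ruxolitinib (mice 4 and 6) or the solvent DMSO alone (mice 2 and 3). The untreated first biopsies of mice 1 to 9 form the Day 0 group. Tofacitinib and ruxolitinib both inhibit Janus kinases, the enzymes that carry signals from many cytokine receptors. The sources used here give no dose. One label conflict touches the groups: for mouse 7, counted under tofacitinib by its title and other fields, the free-text description says ruxolitinib. All 3 day-5 groups share the repeat biopsy, the application and the later day, so that these cannot be told apart in a comparison with Day 0, and the 3 comparisons with Day 0 share the same 9 Day 0 arrays.

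Wnt proteins bind frizzled receptors and Lrp co-receptors, which spares beta-catenin from destruction and lets it act with Lef1 and the related TCF factors on target genes. In skin the pathway is known for starting hair follicle growth, for fixing cell fates in the follicle and for upkeep of the basal epidermis. Several targets feed back on the pathway: Axin2 builds the complex that destroys beta-catenin, and Rnf43 removes frizzled receptors from the cell surface unless an R-spondin such as Rspo3 draws it away.

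RefSeq windows upstream of a transcription start (build GRCm38.p6) were at hand for 7 of the 10 genes, 11 windows in all. The 250 bases before the start are shown for 4 genes whose levels are described below: Fzd10 and Wnt4, lower in every day-5 group than at Day 0, Wif1, higher with both inhibitors, and Lef1, the factor that binds the motif. Capitals mark CTTTG, the core of the TCF and LEF motif, or its reverse complement CAAAG. All 4 lie on the + strand, 5′ to 3′, at chr5:128600856-128601105 (Fzd10), chr4:137277385-137277634 (Wnt4), chr3:131110047-131110296 (Lef1, the first of its 4 windows) and chr10:121033754-121034003 (Wif1).
Fzd10: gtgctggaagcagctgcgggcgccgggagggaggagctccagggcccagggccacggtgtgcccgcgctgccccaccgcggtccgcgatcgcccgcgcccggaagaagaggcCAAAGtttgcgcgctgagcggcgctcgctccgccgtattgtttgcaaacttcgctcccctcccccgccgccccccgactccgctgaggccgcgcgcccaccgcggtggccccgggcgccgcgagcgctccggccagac
Wnt4: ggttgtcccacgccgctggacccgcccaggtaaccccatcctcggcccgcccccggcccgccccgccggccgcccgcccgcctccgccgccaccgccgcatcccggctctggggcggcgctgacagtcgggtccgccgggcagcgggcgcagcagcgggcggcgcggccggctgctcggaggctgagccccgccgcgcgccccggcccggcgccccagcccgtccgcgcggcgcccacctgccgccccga
Lef1: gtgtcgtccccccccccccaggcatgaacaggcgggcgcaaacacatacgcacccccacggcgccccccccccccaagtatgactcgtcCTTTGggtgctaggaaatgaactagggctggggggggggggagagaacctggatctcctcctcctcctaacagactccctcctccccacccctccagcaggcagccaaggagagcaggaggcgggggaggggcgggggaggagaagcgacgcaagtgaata
Wif1: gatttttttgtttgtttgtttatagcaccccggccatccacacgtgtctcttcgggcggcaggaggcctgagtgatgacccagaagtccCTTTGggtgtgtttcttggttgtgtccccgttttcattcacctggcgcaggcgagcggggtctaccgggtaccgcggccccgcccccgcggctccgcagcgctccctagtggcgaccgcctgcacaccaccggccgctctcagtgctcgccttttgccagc
The 5-letter core, searched on both strands, stood in 6 of the 11 windows, against 48.6% of all 32851 windows of the same length. Those 6 were the 4 windows of Lef1 and 1 each of Fzd10 and Wif1. Lef1 windows 1 and 2 overlap, so these are not 6 separate promoters. The longer forms CTTTGAA and CTTTGAT, which contain the core, stood in 0 of the 11 windows and in 7.48% of all. The windows ranged widely in base composition: GC content was 76.4% for Fzd10, 85.2% for Wnt4, 66.4% for the Lef1 window shown and 62.8% for Wif1, and the median over all windows was 52.4%.

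The values are log2 expression values made by the submitters with GCRMA, which corrects background, normalizes arrays and summarises the probes of a set, so a difference of 1 is a doubling of signal. The median of an array was 3.75 at the lowest and 3.94 at the highest. Control probe sets that have no mouse target, 27 in all, never exceeded 2.43. Values at or under 2.43 are called background below. Replicates were separate mice. The Day 0 arrays did not form 1 tight group: on the leading component of these 9 arrays, which held 54.6% of their variance, mice 1, 3, 8 and 9 scored between -52.7 and -14.6 and the other 5 mice between 9.22 and 33.1. Since no label accounts for this, results that rest on these 4 arrays are also given without them. Basal keratinocyte markers averaged above 10 on every array. Whole skin mixes many cell types, and fewer cells of a type cannot be told apart from less RNA per cell.

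Of the 9 tested genes, Wnt4, Fzd10, Rspo3, Rnf43 and Axin2 fell against Day 0 in each of the 3 day-5 groups, by between 1.15 and 4.51 on the log2 scale. Sfrp1 fell with DMSO, and Wif1 rose with tofacitinib and with ruxolitinib. In counts, 5 of the 9 tested genes were lower and 1 was higher with tofacitinib (of all tested genes 27.4% were lower and 22.7% higher, 50.1% in all), 5 lower and 1 higher with ruxolitinib (21.4% and 12.5% of all, 34% together), and 6 lower and 0 higher with DMSO (28.9% and 22.2% of all, 51.1% together), at an adjusted p under 0.05 in limma with Benjamini-Hochberg adjustment over all 12087 genes. Fzd10 and Rspo3 passed the filter through their Day 0 levels, so a lower call was favoured for both, and the counts and medians of the 9 genes are a description only. The median log2 difference of the 9 genes was -1.19 with tofacitinib, -1.15 with ruxolitinib and -1.23 with DMSO, against -0.02, -0.03 and -0.05 over all tested genes.

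**Figure D1:**
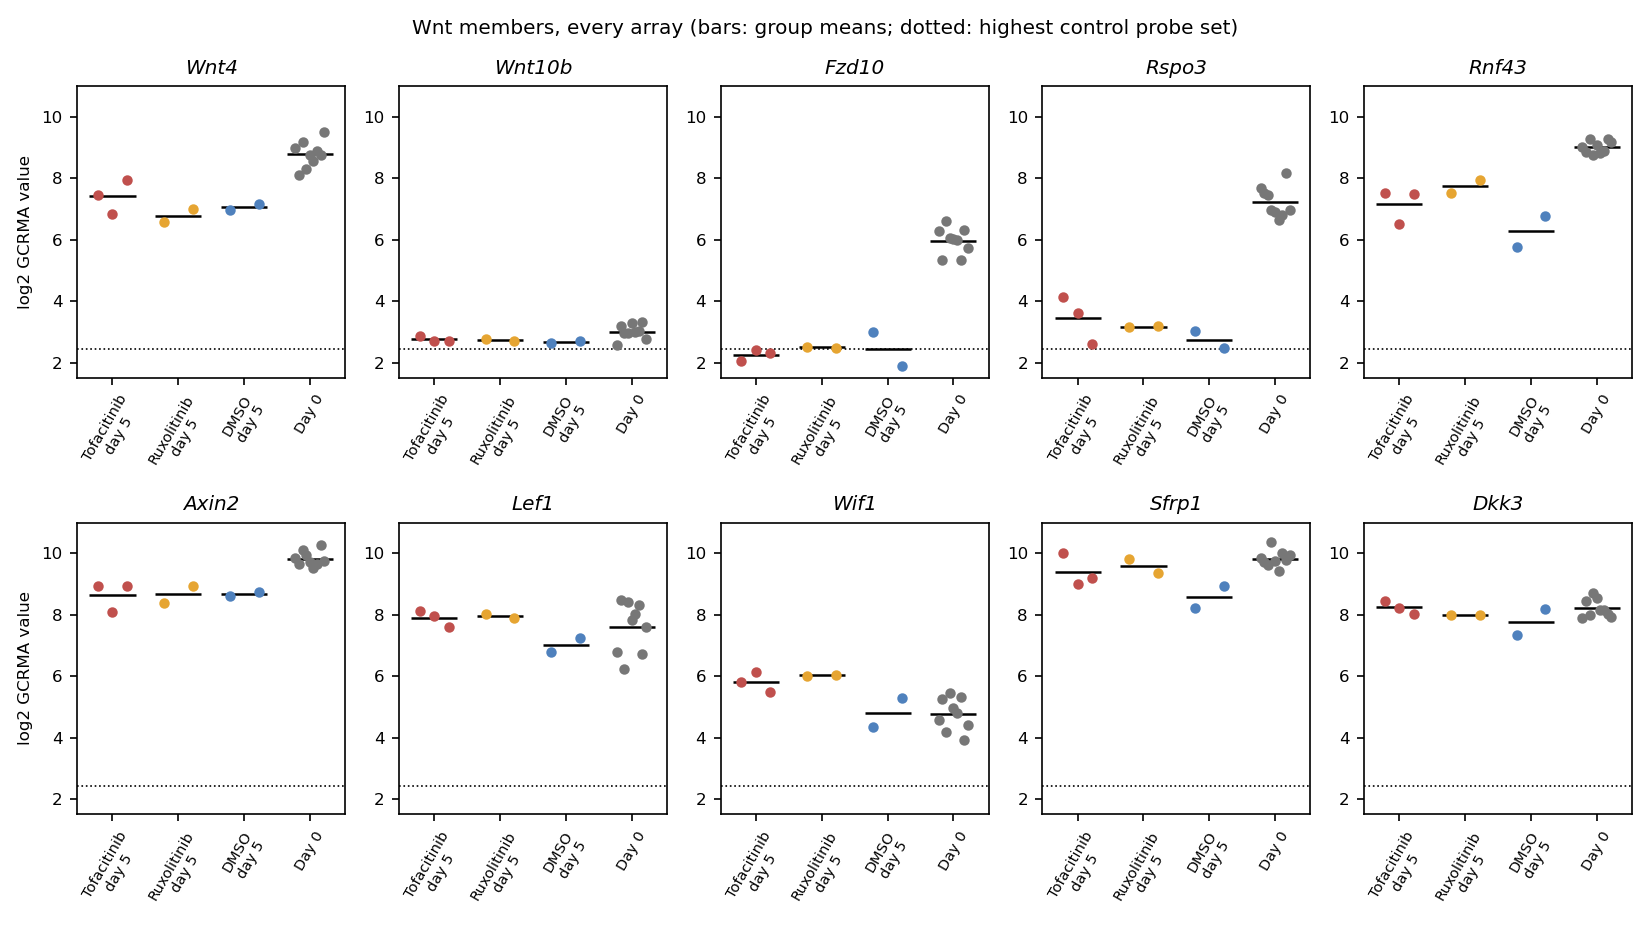
Log2 GCRMA values (y axis) of the 10 Wnt genes on every array, 1 panel per gene, with tofacitinib, ruxolitinib and DMSO at day 5 to the left of Day 0. Each point is 1 mouse, bars are group means, and the dotted line marks 2.43, the highest control value. Fzd10 and Rspo3 lie near that line at day 5 and well above it at Day 0, and Wnt10b stays close to it on all arrays.

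Gene positions below are those of RefSeq on GRCm38.p6. Of the ligands, Wnt4 (Entrez gene 22417, chr4:137277635-137299501) signals in epithelia of several organs and is made in epidermis. Its values were 7.45, 6.85 and 7.94 with tofacitinib (mice 7, 8 and 9), 6.57 and 7.0 with ruxolitinib (mice 4 and 6), 6.97 and 7.16 with DMSO (mice 2 and 3), and 8.10 to 9.51 at Day 0 with a median of 8.76. Every day-5 array lay under every Day 0 array, and the day-5 groups overlapped each other. Wnt4 was 2.63-fold lower with tofacitinib (log2 difference -1.39 ± 0.25, SE, adjusted p = 0.000559, limma), 3.88-fold lower with ruxolitinib (-1.96 ± 0.30, adjusted p = 0.000253) and 3.25-fold lower with DMSO (-1.70 ± 0.30, adjusted p = 0.00043). A second Wnt4 probe set was lower in all 3 groups too, with log2 differences of -1.36 with tofacitinib, -1.25 with ruxolitinib and -1.90 with DMSO. Wnt10b (Entrez gene 22410, chr15:98770712-98778206), a ligand tied to the growth phase of the hair follicle, had values of 2.86, 2.70 and 2.71 with tofacitinib, 2.76 and 2.71 with ruxolitinib, 2.65 and 2.69 with DMSO, and 2.57 to 3.33 at Day 0 with a median of 2.99. These lie just above the control values and were not tested. The day-5 value was the lower of the pair in 7 of 7 mice, with differences from -0.63 to -0.04. So near background these are not read as a fall.

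Fzd10 (Entrez gene 93897, chr5:128601106-128604093), a frizzled receptor, fell to background or close to it at day 5. It had 2.05, 2.40 and 2.30 with tofacitinib, 2.50 and 2.49 with ruxolitinib, 2.99 and 1.89 with DMSO, and 5.32 to 6.61 at Day 0 with a median of 6.03. All 7 day-5 arrays lay far under all 9 Day 0 arrays. The 9 Day 0 arrays were also the ones above the filter, so that the gene entered the test through the group where it is high. With tofacitinib every array was at background, so Fzd10 was at least 11.5-fold lower (adjusted p = 3.56e-07, limma). The fitted differences were -3.47 ± 0.31 with ruxolitinib (adjusted p = 4.46e-06) and -3.52 ± 0.31 with DMSO (adjusted p = 1.80e-06, 1 of 2 arrays at background), whose size is uncertain so near the background. A second Fzd10 probe set was at background on all 16 arrays.

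Rspo3 (Entrez gene 72780, chr10:29453106-29535867), the R-spondin that binds Lgr receptors and holds Rnf43 away from frizzled receptors, had values of 4.12, 3.62 and 2.61 with tofacitinib, 3.16 and 3.18 with ruxolitinib, 3.01 and 2.49 with DMSO, and 6.65 to 8.17 at Day 0 with a median of 6.98. The day-5 and Day 0 arrays were far apart, and among day-5 arrays the highest was mouse 7 and the lowest mouse 3. The arrays above the filter were the 9 of Day 0 and that of mouse 7, so Rspo3 too entered the test through Day 0. Rspo3 was 13.9-fold lower with tofacitinib (-3.80 ± 0.31, SE, adjusted p = 1.01e-06, limma) and 16.3-fold lower with ruxolitinib (-4.02 ± 0.37, adjusted p = 4.99e-06). With DMSO it was 22.8-fold lower (-4.51 ± 0.37, adjusted p = 1.10e-06, limma). A second Rspo3 probe set was at background on all 16 arrays.

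Rnf43 (Entrez gene 207742, chr11:87663087-87735539), the membrane ubiquitin ligase, was tight at Day 0 and spread out at day 5. Values were 7.53, 6.52 and 7.47 with tofacitinib, 7.53 and 7.95 with ruxolitinib, 5.76 and 6.78 with DMSO, and 8.76 to 9.28 at Day 0 with a median of 9.0. Each day-5 array was under each Day 0 array, the 2 DMSO arrays and the tofacitinib array of mouse 8 lowest. Rnf43 fell 3.61-fold in tofacitinib skin (-1.85 ± 0.22, SE, adjusted p = 1.73e-05, limma), 2.38-fold in ruxolitinib skin (-1.25 ± 0.26, adjusted p = 0.00225) and 6.71-fold in DMSO skin (-2.75 ± 0.26, adjusted p = 2.97e-06). Without the ruxolitinib array of mouse 4 the ruxolitinib difference was -1.03 and missed the threshold (adjusted p = 0.0561). Leaving out a ruxolitinib or DMSO array, here and below, leaves 1 array in that group, which is assumed to vary like the other groups. With the mouse as a fixed block it was -1.05 (adjusted p = 0.0894).

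Axin2 (Entrez gene 12006, chr11:108917828-108950783), the scaffold often used as a readout of beta-catenin activity, fell by almost the same amount in each group. It had 8.92, 8.10 and 8.92 with tofacitinib, 8.40 and 8.95 with ruxolitinib, 8.60 and 8.73 with DMSO, and 9.51 to 10.27 at Day 0 with a median of 9.76. Day-5 arrays lay under all Day 0 arrays and overlapped each other. A second Axin2 probe set, under the filter level on every array, was lower at day 5 in each pair but that of mouse 9 (0.28). For the probe set used, the differences were -1.19 ± 0.19 with tofacitinib (adjusted p = 0.000253, limma), -1.15 ± 0.23 with ruxolitinib (adjusted p = 0.00168) and -1.17 ± 0.23 with DMSO (adjusted p = 0.000926), or between 2.21- and 2.27-fold. The call was lost with ruxolitinib without mouse 4 (-0.83, adjusted p = 0.0690), and with a fixed mouse block with ruxolitinib (-1.05, adjusted p = 0.127) and DMSO (-1.22, adjusted p = 0.0537).

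**Figure D2:**
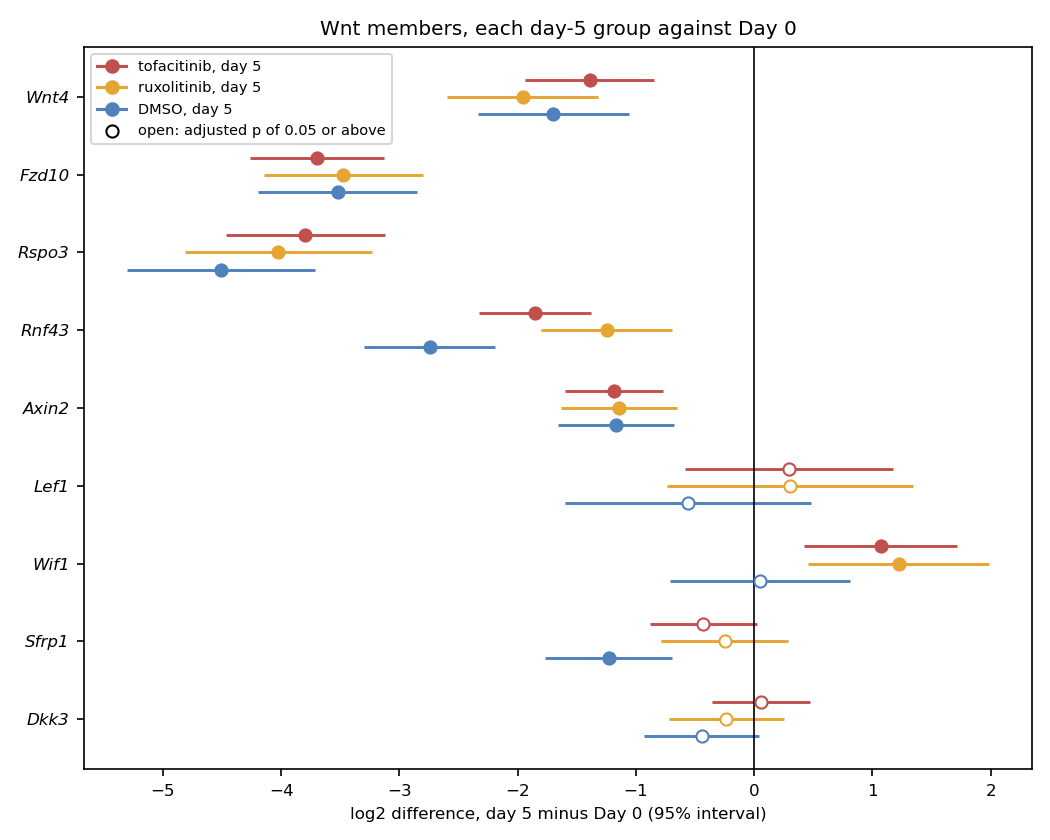
Log2 difference from Day 0 (x axis, day 5 minus Day 0) of the 9 tested genes, with tofacitinib above ruxolitinib above DMSO in each row. Points are limma estimates, bars their 95% intervals, and filled points passed an adjusted p of 0.05. The 5 genes at the top lie left of 0 in all 3 groups, Wif1 lies right of it with both inhibitors, and Lef1 and Dkk3 have open points throughout.

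Lef1 (Entrez gene 16842, chr3:131110297-131224357), the factor through which beta-catenin reaches DNA, did not pass in any of the 3 comparisons with Day 0. Its values were 8.13, 7.94 and 7.58 with tofacitinib, 8.02 and 7.90 with ruxolitinib, 6.80 and 7.23 with DMSO, and 6.23 to 8.47 at Day 0 with a median of 7.82. Every day-5 array lay within the Day 0 range, which spanned over 2 log2 units. The differences were 0.29 with tofacitinib (95% interval -0.59 to 1.17), 0.30 with ruxolitinib (-0.74 to 1.34) and -0.56 with DMSO (-1.60 to 0.48). Without the Day 0 arrays of mice 1, 3, 8 and 9 these values were -0.33, -0.25 and -1.24, and the DMSO difference then passed (adjusted p = 0.000778, limma). A second Lef1 probe set was at background on all arrays.

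Among the secreted inhibitors, Wif1 (Entrez gene 24117, chr10:121034004-121100642), which binds Wnt proteins outside the cell, was the gene of the 9 that rose. It had 5.82, 6.14 and 5.49 with tofacitinib, 6.02 and 6.03 with ruxolitinib, 4.33 and 5.29 with DMSO, and 3.94 to 5.45 at Day 0 with a median of 4.79. All 5 inhibitor arrays were above all Day 0 arrays, while both DMSO arrays lay inside the Day 0 range. Wif1 was 2.10-fold higher with tofacitinib (1.07 ± 0.30, SE, adjusted p = 0.00965, limma) and 2.33-fold higher with ruxolitinib (1.22 ± 0.36, adjusted p = 0.0166). With DMSO the difference was 0.05 (interval -0.72 to 0.81). The call was lost without tofacitinib mouse 8 (0.88, adjusted p = 0.0658), without ruxolitinib mouse 4 (1.26, adjusted p = 0.0970) or mouse 6 (1.15, adjusted p = 0.141), and with tofacitinib without the 4 Day 0 arrays that stood apart (0.62, adjusted p = 0.0501). With the mouse as a fixed block it was 1.26 with tofacitinib (adjusted p = 0.0595) and 0.91 with ruxolitinib (adjusted p = 0.306). Against the Day 0 arrays of the ruxolitinib arm, which add mouse 5 to mice 4 and 6, it was 0.95 (adjusted p = 0.106).

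Sfrp1 (Entrez gene 20377, chr8:23411383-23449632), which binds Wnts through a frizzled-like domain, had 10.003, 9.0 and 9.20 with tofacitinib, 9.81 and 9.35 with ruxolitinib, 8.22 and 8.93 with DMSO, and 9.42 to 10.36 at Day 0 with a median of 9.77. The tofacitinib arrays of mice 8 and 9, the ruxolitinib array of mouse 6 and both DMSO arrays lay under all Day 0 arrays, and the other 2 inhibitor arrays lay within the Day 0 range. Sfrp1 was 2.35-fold lower with DMSO (-1.23 ± 0.25, SE, adjusted p = 0.0012, limma), a call lost without DMSO mouse 2 (-0.89, adjusted p = 0.0606). It did not pass with tofacitinib (-0.43, interval -0.88 to 0.02) or with ruxolitinib (-0.25, interval -0.78 to 0.29), but without tofacitinib mouse 7 the tofacitinib difference was -0.73 and passed (adjusted p = 0.00842, limma). Both further Sfrp1 probe sets above the filter were lower with DMSO too, with log2 differences of -1.67 and -0.71. With the inhibitors their signs parted and neither passed: -0.65 and 0.16 with tofacitinib, -0.82 and 0.32 with ruxolitinib.

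Dkk3 (Entrez gene 50781, chr7:112116019-112159482), a divergent member of the Dickkopf family, had 8.46, 8.23 and 8.04 with tofacitinib, 7.99 on both ruxolitinib arrays, 7.35 and 8.17 with DMSO, and 7.91 to 8.71 at Day 0 with a median of 8.14. The DMSO array of mouse 2 was the sole day-5 array outside the Day 0 range. None of the 3 differences passed: 0.06 with tofacitinib (interval -0.36 to 0.47), -0.24 with ruxolitinib (-0.72 to 0.25) and -0.44 with DMSO (-0.93 to 0.04). The DMSO difference passed without DMSO mouse 3 (-0.85, adjusted p = 0.0305, limma) and without the 4 Day 0 arrays that stood apart (-0.66, adjusted p = 0.0339). A second Dkk3 probe set gave 0.00, 0.03 and -0.62, and also did not pass.

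Within single mice the genes called lower mostly kept that direction, which follows in part from calling them on these same arrays. The share of all tested genes with such counts is not given here, so they are a description only. The day-5 value was below the mouse's own Day 0 value in 7 of 7 mice for Wnt4, Fzd10, Rspo3, Rnf43 and Axin2, and in 6 of 7 for Sfrp1. For Rspo3 the difference, day 5 minus Day 0, was between -4.98 (mouse 3) and -2.68 (mouse 7), and for Axin2 between -2.16 (mouse 8) and -0.56 (mouse 6). Wif1 was higher in 6 of 7 mice, by up to 2.20 in mouse 8, and differed by -0.93 in DMSO mouse 2. Lef1 was below its own Day 0 value in 5 of 7 mice but was higher by 1.23 in mouse 8 and by 0.99 in mouse 3, the 2 paired mice with the lowest Lef1 at Day 0. The same mouse's arrays were not clearly alike: deviations from the group means correlated between -0.18 and 0.18 over the 7 pairs. By this measure 1 day-5 array was closest to its own Day 0 array. In a group of 2 arrays the deviations mirror each other, so the 7 pairs are not 7 separate checks.

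Ordering the group means of each gene, Day 0 came first for Wnt4, Fzd10, Rspo3, Rnf43, Axin2, Sfrp1 and Wnt10b. The first 5 of these had a gap to the next group, and the arrays overlapped for Sfrp1 and Wnt10b. How many of all tested genes have such gaps is not given here, so the gaps are a description only. Wif1 and Lef1 had ruxolitinib first, and Dkk3 had tofacitinib first. DMSO came last for Rnf43, Rspo3, Lef1, Dkk3, Sfrp1 and Wnt10b. Day-5 groups next to each other in this order mostly overlapped. The exceptions were ruxolitinib over tofacitinib for Rnf43, ruxolitinib over DMSO for Rspo3 and Wnt10b, and tofacitinib over DMSO for Wif1 and Sfrp1. With the Day 0 mean between them, tofacitinib arrays also lay above those of ruxolitinib for Dkk3 and those of DMSO for Lef1.

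The comparison of inhibitor with DMSO at day 5 asks what the compounds changed beyond their solvent. No Wnt gene passed in limma with Benjamini-Hochberg adjustment: 0 of 9 for tofacitinib against DMSO (0.165% of all tested genes passed), 0 of 9 for ruxolitinib against DMSO (0.521% of all, 0.116% lower and 0.405% higher) and 0 of 9 for the mean of both inhibitors against DMSO (0.935% of all, 0.0993% lower and 0.836% higher). At an unadjusted p under 0.05 there were 3 genes in each of these comparisons, and of all tested genes 8.4% for tofacitinib, 15.7% for ruxolitinib and 13.9% for the mean of both. The 3 genes with an interval above 0 were Rnf43, Wif1 and Sfrp1. For the 9 genes the median difference from DMSO was 0.71 with tofacitinib and 0.49 with ruxolitinib, against 0.01 and 0.00 over all genes.

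**Figure D3:**
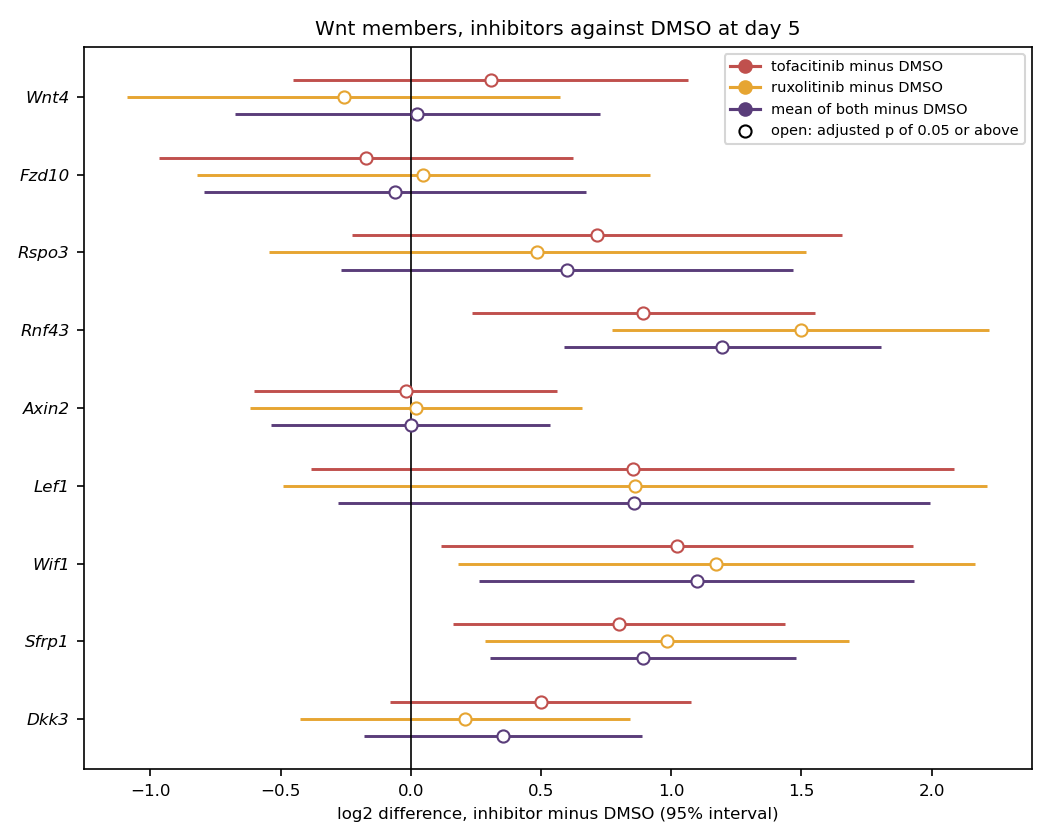
Log2 difference between inhibitor and DMSO arrays at day 5 (x axis, inhibitor minus DMSO) for the 9 tested genes, with tofacitinib, ruxolitinib and the mean of both from top to bottom in each row. Points are limma estimates and bars 95% intervals. The intervals of Rnf43, Wif1 and Sfrp1 lie right of 0 in all 3 comparisons, those of the other 6 genes span 0, and no point is filled because no gene passed after adjustment.

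Rnf43 came nearest to the threshold. Its level was 0.89 ± 0.31 higher with tofacitinib than with DMSO on the log2 scale (adjusted p = 0.342, limma), 1.5 ± 0.34 higher with ruxolitinib (adjusted p = 0.0612) and 1.2 ± 0.29 higher with the mean of both (adjusted p = 0.0644). Of the 5 inhibitor arrays 4 lay above both DMSO arrays, and the exception was tofacitinib mouse 8. Without that array the mean of both inhibitors differed by 1.36 and passed (adjusted p = 0.0236), and without DMSO mouse 2 it was 0.67 (adjusted p = 0.640). For the mean of both, Wif1 differed by 1.10 ± 0.39 (adjusted p = 0.210, limma) and Sfrp1 by 0.89 ± 0.28 (adjusted p = 0.139). In both genes all 5 inhibitor arrays exceeded both DMSO arrays, and the share of all tested genes that did so is not given here. Another Sfrp1 probe set, of a kind whose probes may also match other transcripts, differed by 0.95 for the mean of both (adjusted p = 0.0340) and by 1.03 with ruxolitinib (adjusted p = 0.0352), while the third differed by 0.94 (adjusted p = 0.251).

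For Lef1 too all 5 inhibitor arrays lay above both DMSO arrays, with a mean difference of 0.86 (interval -0.28 to 2.0, adjusted p = 0.502). Without the 4 Day 0 arrays that stood apart the difference of 0.95 passed (adjusted p = 0.0446). Against the Day 0 arrays of each treatment arm the value was 0.26 (adjusted p = 0.856). Those arms also count mice 1 and 5, which have no second biopsy. For Axin2 and Wnt4 the estimates lay near 0: the mean of both inhibitors differed from DMSO by 0.00 for Axin2 (interval -0.54 to 0.54) and 0.02 for Wnt4 (-0.68 to 0.72).

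Tofacitinib and ruxolitinib were compared at the same day, at doses that are not given. None of the 9 genes passed for tofacitinib against ruxolitinib (3 of all tested genes did, 0.0248%), and none had an unadjusted p under 0.05. The differences, tofacitinib minus ruxolitinib, ran from -0.60 for Rnf43 (interval -1.26 to 0.06) to 0.56 for Wnt4 (-0.20 to 1.32), the median was -0.04 against 0.03 over all genes, and adjusted p-values were 0.898 or above. The Wnt4 value was -0.01 with a fixed mouse block. With intervals this wide the 2 compounds were neither shown to differ nor shown to act alike on these genes.

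At Day 0, before any treatment, the Wnt genes already varied from mouse to mouse, and not all in the same direction. Lef1 was 6.78, 6.23 and 6.71 in mice 1, 3 and 8 and between 7.62 and 8.47 in the other 6 mice. Wif1 was lowest in mice 8, 3 and 9, with 3.94, 4.18 and 4.41, and highest in mouse 4 with 5.45. Rnf43 had its highest values, 9.28, 9.26 and 9.18, in mice 3, 8 and 9, and Axin2 its highest, 10.27 and 10.12, in mice 8 and 3. Mice 3 and 8 were thus low in both Lef1 and Wif1 and high in both Rnf43 and Axin2. Marker lists of other cell types moved with this: the adipocyte list averaged 7.66 and 7.70 in mice 3 and 8, against 9.30 to 10.06 in mice 2, 4, 5, 6 and 7, with 6.19 in mouse 1 and 8.28 in mouse 9. The basal keratinocyte list averaged 11.62 and 11.53 in mice 3 and 8, against 11.13 to 11.26 in mice 2, 4, 5, 6 and 7, with 11.45 in mouse 1 and 11.56 in mouse 9. Their part in the spread of the Wnt genes was not tested.

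**Figure D4:**
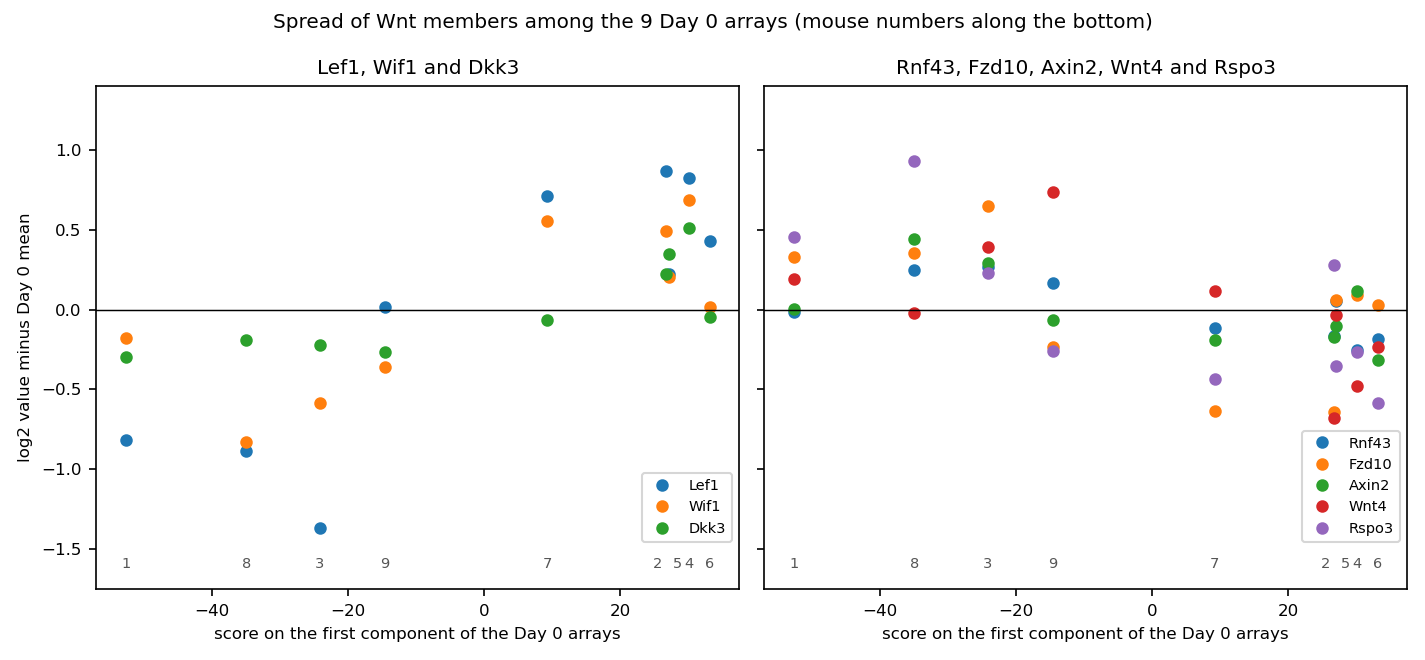
Level of 8 Wnt genes on each Day 0 array, as the log2 value minus the gene's Day 0 mean (y axis), against the array's score on the leading component of the 9 Day 0 arrays (x axis), with mouse numbers along the bottom. Lef1, Wif1 and Dkk3 tend to lie under their means at the left, where mice 1, 8, 3 and 9 are, and above them at the right. The genes in the right panel tend the other way, and Lef1 has the widest spread.

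The tested genes whose Day 0 pattern was most like each Wnt gene were found by Pearson correlation over the 9 Day 0 arrays, which is a description only, since all genes share these arrays and their leading component. For Lef1 they were Zfp275 (r = 0.980), Sox2 (r = 0.976), a transcription factor of dermal papilla and other cells, and Gprc5c (r = 0.972). For Wif1 they were Rwdd3 (r = 0.984), Shisa2 (r = 0.981) and Oxtr (r = 0.976), and for Dkk3 Spats2l (r = 0.970), Mc2r (r = 0.967) and Megf10 (r = 0.965). Rnf43 was closest to Yeats4 (r = 0.982), Trp53bp2 (r = 0.974) and Gata3 (r = 0.966), Fzd10 to 4933407E14Rik (r = 0.993) and Rspo3 to Pkib (r = 0.966). Axin2 was closest to Arhgap39 (r = 0.968), Wnt4 to Gtf2e2 (r = 0.964) and Sfrp1 to Sumo3 (r = 0.924).

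The rest of the pathway was read from 77 further genes in 7 role lists, of which 60 were tested. With tofacitinib 22 of the 60 were lower and 12 higher than at Day 0, with ruxolitinib 21 lower and 12 higher, and with DMSO 25 lower and 12 higher. As shares these were 36.7% lower and 20% higher with tofacitinib (27.4% and 22.7% of all tested genes), 35% and 20% with ruxolitinib (21.4% and 12.5% of all) and 41.7% and 20% with DMSO (28.9% and 22.2% of all). Their median difference was -0.17 with tofacitinib, -0.11 with ruxolitinib and -0.33 with DMSO. In the next 4 paragraphs 3 values in a row are log2 differences from Day 0 with tofacitinib, ruxolitinib and DMSO. Wnt9a, Wnt10a, Lrp6, Ctnnb1, Gsk3b and Myc were picked after their values were seen, and the other genes by smallest p within their list. In the 4 comparisons among day-5 groups 0 of the 60 passed in limma. At an unadjusted p under 0.05 there were 5 for tofacitinib against DMSO, 8 for ruxolitinib against DMSO, 9 for the mean of both against DMSO and 3 for tofacitinib against ruxolitinib. These are 8.33%, 13.3%, 15% and 5% of the 60, near the 8.4%, 15.7%, 13.9% and 5.67% of all tested genes.

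Most ligands fell. Of 9 tested, 7 were lower with tofacitinib, 6 with ruxolitinib and 7 with DMSO (27.4%, 21.4% and 28.9% of all tested genes). Just 1, Wnt9a, was higher in each (1.89, 1.37 and 2.38). Wnt3, an epidermal ligand, averaged 5.24 with tofacitinib, 5.27 with ruxolitinib and 4.93 with DMSO, against 9.03 at Day 0 (differences of -3.82, -3.72 and -4.09, adjusted p = 4.03e-06 or less in limma). Wnt3a (-2.61, -2.76 and -2.70), Wnt7b (-2.40, -2.59 and -2.71) and Wnt16 (-2.52, -2.57 and -2.56) fell as well. Wnt10a, a ligand needed for hair and skin appendages, fell (-1.29, -0.88 and -1.59). Wls, which carries Wnt proteins to the cell surface, fell (-0.87, -0.97 and -1.17), whereas Porcn, which attaches their lipid, did not pass (-0.24, -0.36 and -0.34).

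Receptors went both ways, as did all tested genes. Of 15 besides Fzd10, 4 were lower and 4 higher with tofacitinib (27.4% and 22.7% of all tested genes). With ruxolitinib 4 were lower and 3 higher (21.4% and 12.5% of all), and with DMSO 5 lower and 4 higher (28.9% and 22.2% of all). These counts are not far from the shares of all genes. Fzd2 (-1.56, -1.48 and -1.36) and Fzd6 (-0.88, -0.73 and -1.24) fell. Fzd3 (0.88, 0.73 and 0.92) and Ror2, a receptor for Wnt5a (1.01, 0.93 and 0.39), rose. Lrp6, a co-receptor, did not pass (-0.17, -0.01 and 0.00). In the R-spondin system Lgr6, an R-spondin receptor of follicle and epidermal stem cells, fell (-1.45, -1.09 and -1.96). Lgr5, its relative in follicle stem cells, fell with tofacitinib (-0.74) and DMSO (-1.41) and did not pass with ruxolitinib (-0.44). Znrf3, the partner ligase of Rnf43, fell with tofacitinib (-1.65) and DMSO (-1.43) and did not pass with ruxolitinib (-0.78). Rspo1 rose with tofacitinib (1.16, adjusted p = 0.0104, limma) and ruxolitinib (1.06, adjusted p = 0.0485), with low means of 4.09 and 4.07, against 2.95 at Day 0. Only the inhibitor means reach the filter level of 4, so a higher call was favoured for Rspo1.

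Inhibitors that act outside the cell included several that rose. Of 9 besides Wif1, Sfrp1 and Dkk3, 5 were higher and 2 lower with tofacitinib, 5 higher and 2 lower with ruxolitinib, and 4 higher and 2 lower with DMSO. Of all tested genes 22.7%, 12.5% and 22.2% were higher and 27.4%, 21.4% and 28.9% lower. The list's median difference was 1.27, 1.69 and 1.35. Frzb, a relative of Sfrp1, averaged 6.72 with tofacitinib, 6.15 with ruxolitinib and 7.83 with DMSO, against 3.85 at Day 0. Its rises of 2.91, 2.23 and 3.99 passed in each group (adjusted p = 0.00645 or less, limma). The Day 0 mean lay under the filter level of 4, so a higher call may have been favoured. Sfrp2 (2.34, 3.06 and 3.03) and Dkk2 (2.68, 1.69 and 2.18) rose too. Sostdc1, which blocks both Wnt and BMP signals, fell (-2.32, -2.01 and -2.44), as did Apcdd1 (-0.62, -0.71 and -1.02).

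Inside the cell, beta-catenin itself (Ctnnb1) averaged 12.71 with tofacitinib, 12.78 with ruxolitinib, 12.74 with DMSO and 12.78 at Day 0, and Gsk3b, the kinase that marks it for destruction, did not pass either (-0.17, -0.03 and -0.03). Of the 16 tested genes of this list 12 with tofacitinib, 9 with ruxolitinib and 9 with DMSO did not pass, and of all tested genes 49.9%, 66.0% and 48.9% did not. The co-activators Bcl9 and Bcl9l fell in every group (Bcl9l -0.57, -1.39 and -0.92), as did Dvl2 (-0.56, -0.73 and -0.89), and the co-repressor Tle1 rose (1.13, 0.61 and 1.36). Among target genes Tnfrsf19 (-1.98, -2.05 and -1.84) and the cyclin Ccnd1 (-1.18, -0.90 and -1.34) fell. Nkd2, an inhibitor of dishevelled, fell with DMSO (-1.32), and its differences of -0.40 with tofacitinib and -0.57 with ruxolitinib did not pass. Myc did not pass (0.16, 0.06 and 0.18).

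**Figure D5:**
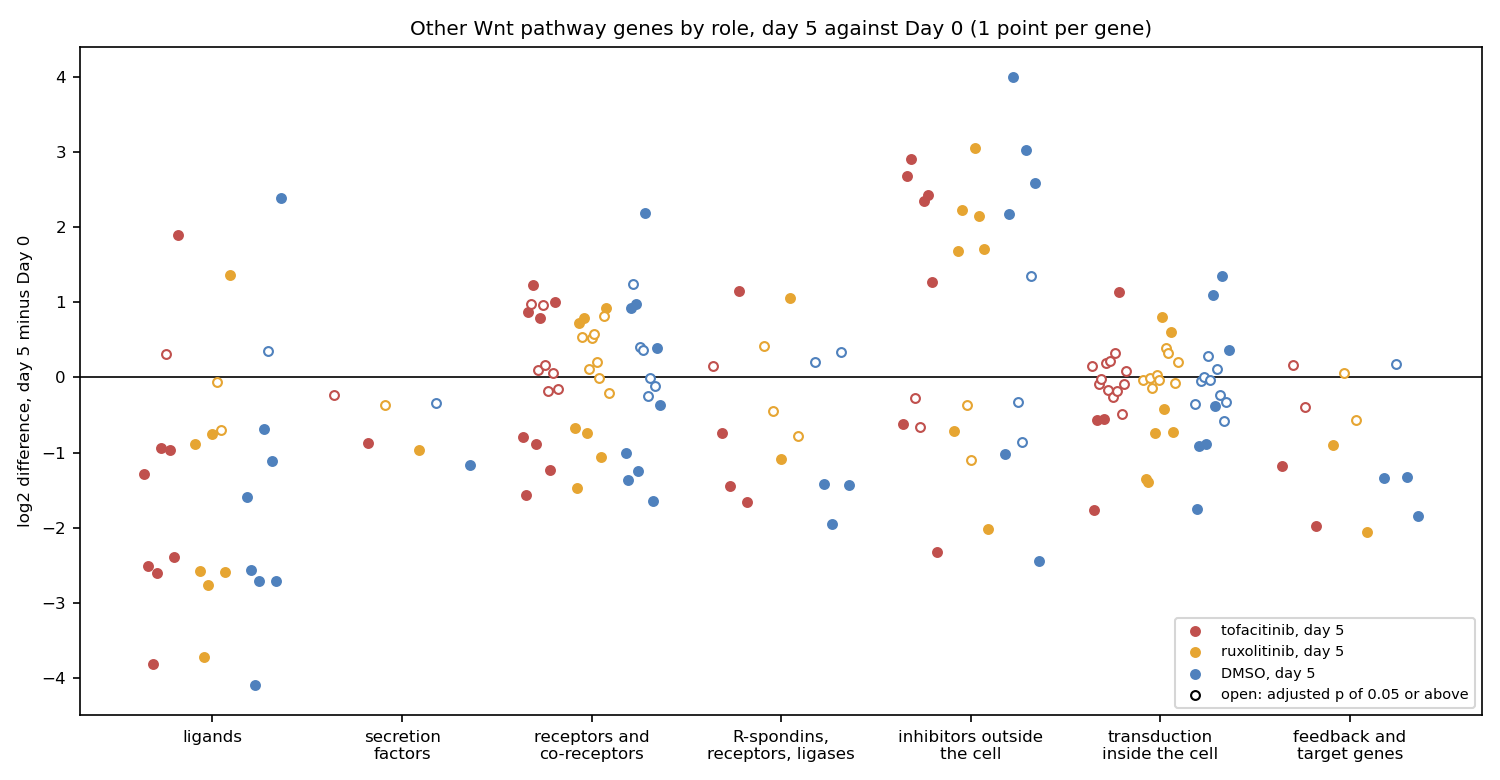
Log2 difference from Day 0 (y axis, day 5 minus Day 0) of the 60 further Wnt pathway genes, grouped by role along the x axis, with tofacitinib, ruxolitinib and DMSO from left to right in each role. Each point is 1 gene and filled points passed an adjusted p of 0.05 in limma. Ligands lie mostly under 0 and the inhibitors outside the cell mostly above it, while the genes of transduction inside the cell gather around 0.

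Markers of skin cell types moved between the same arrays, and their counts follow in the order tofacitinib, ruxolitinib, DMSO. For comparison, 27.4%, 21.4% and 28.9% of all tested genes were lower than at Day 0 and 22.7%, 12.5% and 22.2% higher. The basal keratinocyte list, with 11 of 12 genes tested, had 11 of 11 genes lower in each day-5 group, and its mean log2 level was 10.2 to 10.4 with tofacitinib, 10.1 to 10.5 with ruxolitinib and 10.13 to 10.15 with DMSO, against 11.1 to 11.6 at Day 0. With that mean as a covariate in the fit, which separates day 5 from Day 0 completely, 0 of the 9 Wnt genes passed against Day 0 in any group, and 0.728%, 1.81% and 0.794% of all genes did. Bulge and outer root sheath markers were lower for 8, 8 and 7 of 11 genes, T cell markers for 4, 5 and 5 of 5. Endothelial markers were higher for 12, 9 and 10 of 12, fibroblast markers for 7, 6 and 6 of 11 (and lower for 0, 1 and 1) and dermal papilla markers for 5, 4 and 5 of 8. Melanocyte markers were higher for 5, 5 and 0 of 6 genes, and matrix, inner sheath and shaft markers for 3, 4 and 0 of 8 (and lower for 0, 0 and 2). Suprabasal keratinocyte markers were lower for 2, 0 and 6 of 8. The part of these lists in the Wnt results was not tested. Skeletal muscle markers were higher for 15, 2 and 13 of 20. With their mean as a covariate 5, 5 and 8 Wnt genes passed, all lower, when 22.7%, 29% and 24.1% of all genes passed. The signal of the Gapdh and actin control probes, 3′ minus 5′ end, a sign of RNA quality, was 1.32 to 1.39, 1.38 to 1.41 and 1.24 to 1.36 in the 3 day-5 groups, within or near the 1.28 to 1.78 of Day 0.

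Against DMSO, some markers of melanocytes, hair matrix and suprabasal keratinocytes were higher with the inhibitors. Of 6 tested melanocyte markers 3 were higher with tofacitinib, 3 with ruxolitinib and 5 with the mean of both, and of 8 tested matrix, inner sheath and shaft markers 0, 2 and 3 were. The shares of all tested genes that were higher were 0.165%, 0.405% and 0.836%. Of 8 suprabasal markers 1, Krt1, was higher with the mean of both (0.68, adjusted p = 0.0436, limma). The melanocyte list averaged 7.0 to 8.30 with tofacitinib and 7.53 to 7.96 with ruxolitinib, against 4.85 to 5.71 with DMSO. The matrix list averaged 4.76 to 6.0 and 5.39 to 6.27, against 4.11 to 4.38. On these same arrays Wif1, Sfrp1 and Lef1 lay above DMSO, as did Rnf43 on all but that of tofacitinib mouse 8, and the part of the lists in those differences was not tested. The shaft and sheath keratins Krt27, Krt31, Krt35 and Krt71 and the matrix regulator Foxn1 stayed under the filter.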

How the data were processed

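The data are 16 Affymetrix mouse genome arrays of whole skin. The deposited log2 values were made by the authors with GCRMA, per the submitters' processing notes, and its version is not given in the sources used here. Of 45101 probe sets 34958 have 1 gene symbol in the platform annotation, 932 have several and 9211 are not listed there. Each gene was read from its brightest probe set by mean over all arrays, and 12087 of 18194 genes exceeded 4 on at least 2 arrays and were tested.

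All 16 arrays entered 1 fit in limma 3.58.1 (R 4.3.3) with a mean per group, a random mouse effect (duplicateCorrelation gave a consensus of 0.0982) and eBayes. P-values were adjusted by Benjamini-Hochberg over all 12087 genes and called under 0.05. The mouse numbers in the labels pair the biopsies: of 7 pairs, 2 had deviations that correlated above 0.1. The procedure was tested on simulated data. No arrays were duplicates (highest correlation 0.996). The number of arrays limits the precision.

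The 10 genes, the pathway lists and the marker lists were chosen with earlier results of these data known. Pathway genes were named when among the 3 smallest p in their list in a comparison with Day 0. At Day 0 the 3 nearest genes by Pearson correlation were taken. Alternatives covered the block, filter, probe set choice, covariates and each array left out. Leaving out 4 Day 0 arrays together was chosen after seeing the data.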

Additional observations from a re-analysis of the deposited data

Results flagged for a closer look

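Dkk3 moved in opposite directions in the 2 inhibitor arms when each mouse was set against its own Day 0 biopsy. It was higher by 0.32, 0.22 and 0.10 in the tofacitinib mice 7, 8 and 9 and differed by -0.72 and -0.17 in the ruxolitinib mice 4 and 6, so that the mean within-mouse differences lay 0.66 apart on the log2 scale. Tested in limma with the mouse as a fixed block, the difference of 0.66 had an adjusted p of 0.505, and in the fit with a random mouse effect it was 0.29 (adjusted p = 0.929). The second Dkk3 probe set went the other way: its mean within-mouse difference was -0.01 with tofacitinib and 0.23 with ruxolitinib, or -0.24 apart. Among the 9 Day 0 arrays no single array was far from the rest for any of the 10 genes.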

How the results depend on the processing

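Of 630 values of the 9 genes against Day 0, 603 kept direction and side of the threshold, 13 lost the call, 4 gained one and 10 changed sign. Among day-5 groups 256, 0, 2 and 1 of 259 values did. Those were of Rnf43, Wif1, Sfrp1 and Lef1 against DMSO, and of Rnf43, Wnt4 and Dkk3 between the inhibitors. Both tallies leave out the settings with a covariate or a minimum log2 difference, for which only counts of called genes were made. With the basal keratinocyte mean as a covariate the count of called genes against Day 0 was 0 with tofacitinib, 0 with ruxolitinib and 0 with DMSO. Of all genes 0.728%, 1.81% and 0.794% then passed. For the mean of both inhibitors against DMSO the count was 1, when 1.19% of all genes passed. The mouse as a fixed block left 5 genes with tofacitinib, 3 with ruxolitinib and 5 with DMSO, when 39.4%, 11% and 30.6% of all genes passed. Leaving out any 1 Day 0 array gave 6 genes in each group. Of all genes 45.4% to 53.2% then passed with tofacitinib, 30.9% to 34.9% with ruxolitinib and 47% to 53.1% with DMSO. Leaving out tofacitinib mouse 7, 8 or 9 gave 7, 5 and 6 genes with tofacitinib (52.5%, 38.6% and 32.8% of all). For the mean of both inhibitors against DMSO it gave 0, 1 and 0 (0.397%, 0.414% and 3.09% of all). Leaving out a ruxolitinib or DMSO array leaves 1 array in that group, and the genes whose call against Day 0 then changed are named above. Without the 4 Day 0 arrays that stood apart, 1 gene (Lef1) passed for the mean of both inhibitors against DMSO, when 2.23% of all genes passed. Signs then turned for Lef1 with tofacitinib (-0.33) and ruxolitinib (-0.25), Dkk3 with tofacitinib (-0.13) and Wif1 with DMSO (-0.40). Lef1 with ruxolitinib was also -0.26 with the fixed block and -0.14 against the Day 0 arrays of its arm, mouse 5 included. Wnt4 for tofacitinib against ruxolitinib was -0.0077 with the fixed block. With 1 array left out, Wif1 with DMSO ranged from -0.43 to 0.51 and Dkk3 with tofacitinib from -0.015 to 0.14. None of these sign changes concerned a called value, and the cause was not tested. With 2 or 3 arrays per day-5 group, and Fzd10 and Rspo3 near background at day 5, the size of those falls is uncertain.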
